A study of Mus musculus with 12 samples.

Results

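Invariant natural killer T (iNKT) cells of wild-type (WT) mouse thymus were compared with WT double-positive (DP) thymocytes, the normal step by which this lineage leaves the DP stage. The libraries were taken by their labels and column names: 1 WT iNKT and 2 WT DP libraries, 3 of the 11 libraries of the series, over all 11815 gene entries. A second WT iNKT sample is labelled but has no column of its own. The submitters left 1 out because its sequencing was poor, and it is not analysed here.

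DP thymocytes carry both CD4 and CD8 and rearrange the T cell receptor α locus with the Rag recombinase. A DP cell that makes the invariant Vα14 chain and meets lipid on CD1d, shown by another DP cell, can enter the iNKT lineage. It then switches on the transcription factor PLZF (Zbtb16) and takes on traits shared with natural killer (NK) cells. E proteins such as E2A and HEB drive the DP program, and Id proteins keep them off DNA.

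WT iNKT cells were sorted as CD1d tetramer-positive and TCRβ+, and WT DP cells as TCRγδ−, CD4+ and CD8+, a gate that did not name the tetramer. WT γδ T cells, sorted as TCRγδ+ and CD3+, and L-DKO iNKT and L-DKO DP cells, deficient in Id2 and Id3 through a Cre recombinase under the Lck promoter, were used beside them. For L-DKO DP cells the labels give a CD1d tetramer-negative, CD4+ and CD8+ gate, while the RNA methods of the study give the WT DP gate for both genotypes. WT samples are titled B6, and the strain of the series was C57BL/6 or its hybrid with 129, without a strain per sample. Mice were 4 to 5 weeks old and each library pooled 2 to 3 of them. Id3KO γδ T cells entered the fit, and their values are given for a few genes, but they were not compared with another group.

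The values were FPKM, that is, fragments scaled by gene length and library total, and tests ran on log2(FPKM + 1), which understates the change of low genes and sets the fold of genes listed at 0 by the 1 that is added. With 1 WT iNKT library its spread was borrowed from the other 5 groups, so p-values assume that WT iNKT pools vary as those do. FPKM summed to 1020310 in WT iNKT, against 563040 and 498489 in WT DP. Entries of small RNA, receptor gene segments or predicted genes took 64.3% of it in WT iNKT, against 46.5% and 41.6% in WT DP. Fewer WT iNKT than WT DP cells were sorted in total, so cell input and cell type cannot be told apart. In sorted pools, fewer expressing cells and less RNA per cell cannot be told apart either. The 4 Y-linked genes measured summed to 2.46 FPKM in WT iNKT, against 175 and 201 FPKM in WT DP, so the sex of the pooled mice and the cell type cannot be told apart.

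Most DP and iNKT marker genes fitted the labelled cell types, but γδ and myeloid marker sums were also higher in WT iNKT. The 8 DP markers, among them Rag1, Cd4 and Cd8a, summed to 182 FPKM in WT iNKT, against 2811 and 2810 FPKM in WT DP. The 5 iNKT markers in the table, among them Zbtb16 and Il2rb, summed to 1073 FPKM in WT iNKT, against 44.6 and 45 FPKM in WT DP. Slamf6, the 1 iNKT marker that fell, was at 19.9 FPKM in WT iNKT, against 38.8 and 40.5 FPKM in WT DP. The invariant α chain segment Trav11 (chr14:53519303-53519859) stood at 547 FPKM in WT iNKT, against 5.41 and 7.18 FPKM in WT DP. The 5 γδ markers in the table summed to 570 FPKM in WT iNKT, against 4.49 and 1.40 FPKM in WT DP. The 7 myeloid and dendritic markers summed to 145 FPKM in WT iNKT, against 34.8 and 34.1 FPKM in WT DP. All 8 NK cell markers on the list, and Tbx21, Cxcr3 and Klrb1c among the iNKT markers, are not listed in the table.

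WT iNKT cells had 1920 genes higher and 1031 lower than WT DP cells at a limma adjusted p under 0.05. These were 16.3% and 8.73% of all genes, together 25.0%, and they are the background for every count of this comparison. The gene lists counted below were chosen with earlier results of these data known, so their counts and medians describe and do not test. Separate fits called 645 genes lower without WT DP a and 622 without WT DP b. Of all entries, 11 were listed at 0 in WT iNKT, against 215 and 114 in WT DP. How far the choice of deposited genes set the split was not tested. The split also depends on the scaling. It was 1449 higher and 1520 lower after quantile normalization, and 1404 higher and 1755 lower with the total over other genes made equal. It was 707 higher and 4071 lower with the total over all genes made equal, a scaling that moved the median gene by -0.84 on the log2 scale. Over all genes the log2 values of WT iNKT correlated at r = 0.727 with WT DP, while the 2 WT DP libraries correlated at 0.930 with each other.

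Regulators of the E protein axis parted at this step. Id2, the Id protein of innate lymphoid lineages, stood at 553 FPKM in WT iNKT, against 2.25 and 2.64 FPKM in WT DP. Its log2 fold change was 7.33 ± 0.52 (SE; limma adjusted p = 0.000225), the largest of the 5 E and Id protein genes measured. Id2 was at 0 and 0.199 FPKM in L-DKO iNKT, 0.127 and 0.266 in L-DKO DP, 157 and 60 in Id3KO γδ and 20.4 and 34.6 in WT γδ.

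Id3, its close relative, did not show such a change. Id3 stood at 42.4 FPKM in WT iNKT, inside the 53.8 and 36.9 FPKM of WT DP (log2 fold change -0.07 ± 0.43, limma adjusted p = 0.926). The libraries labelled L-DKO iNKT held Id3 at 30.5 and 22.8 FPKM, while it was at 6.16 and 3.09 in L-DKO DP, 3.95 and 3.07 in Id3KO γδ and 157 and 96.7 in WT γδ. The label L-DKO iNKT is thus borne out by Id2 but not by Id3.

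Among E proteins, Tcf12 (HEB) fell to 76.0 FPKM in WT iNKT, against 245 and 303 FPKM in WT DP (log2 fold change -1.83 ± 0.25, limma adjusted p = 0.00191). Tcf3, which encodes E2A, stood at 31.5 FPKM in WT iNKT, against 56.7 and 57.0 FPKM in WT DP, and missed the threshold (limma adjusted p = 0.084). Of the 5 genes, 1 rose and 1 fell.

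The bases before the start of 3 genes are shown because they bear the E-box letters that E proteins bind: Rag1 and Ptcra fell and Id2 rose. Sequences are from RefSeq (GRCm38.p6, minus strand), 5′ to 3′, and end at the base before the start. Capitals mark the E-box letters CAGCTG, which read the same on both strands, the E-box letters CAGGTG with their complement CACCTG, and the RUNX letters TGTGGT with their complement ACCACA.
Rag1 (chr2:101649533-101649782): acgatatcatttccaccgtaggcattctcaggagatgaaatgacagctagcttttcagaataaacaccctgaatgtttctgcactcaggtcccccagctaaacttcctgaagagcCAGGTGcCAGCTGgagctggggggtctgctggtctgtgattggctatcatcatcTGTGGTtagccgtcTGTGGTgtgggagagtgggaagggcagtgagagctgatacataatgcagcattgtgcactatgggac
Ptcra (chr17:46763713-46763962): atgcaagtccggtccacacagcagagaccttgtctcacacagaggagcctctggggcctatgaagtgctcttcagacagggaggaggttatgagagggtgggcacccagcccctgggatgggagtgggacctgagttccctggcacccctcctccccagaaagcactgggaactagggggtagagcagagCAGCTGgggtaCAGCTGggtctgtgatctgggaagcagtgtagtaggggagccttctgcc
Id2 (chr12:25096093-25096342): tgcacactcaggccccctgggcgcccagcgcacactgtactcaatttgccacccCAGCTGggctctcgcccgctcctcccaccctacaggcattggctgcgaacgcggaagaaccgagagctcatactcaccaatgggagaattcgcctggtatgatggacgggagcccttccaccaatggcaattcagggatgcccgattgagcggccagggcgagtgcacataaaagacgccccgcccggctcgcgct

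Rag1 held CAGGTG at 135 bases and CAGCTG at 128 bases before its start, and TGTGGT at 81 and 67 bases. Ptcra held CAGCTG at 60 and 49 bases, and Id2 held it at 196 bases. Of all 32851 promoters in the table, 13% held CAGCTG, 17.2% held CAGGTG or its complement, 27.7% held either E-box and 14% held the RUNX letters. Counted by gene, 8263 of 27025 genes held an E-box in a promoter. Among the genes with the largest changes, 5 of 8 falls and 4 of 8 rises with a promoter entry held an E-box. These are letter matches and not measured binding sites.

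The recombination machinery fell. Rag1 (chr2:101638252-101649532), which cuts receptor loci, stood at 47.8 FPKM in WT iNKT, against 1114 and 1177 FPKM in WT DP (log2 fold change -4.55 ± 0.67, limma adjusted p = 0.00245). Its neighbour and partner Rag2 stood at 3.15 FPKM in WT iNKT, against 97.3 and 83.9 FPKM in WT DP (-4.46 ± 0.57, limma adjusted p = 0.00145). The WT iNKT value lay far below both WT DP values for each. In the other groups Rag1 was at 84.9 and 112 FPKM in WT γδ, 4.01 and 3.73 in L-DKO iNKT, 1275 and 1346 in L-DKO DP and 29.2 and 6.36 in Id3KO γδ.

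Of 12 recombination and end-joining genes measured, 7 fell and 1 rose, with a median log2 fold change of -1.52, against 0.11 for all genes. Lig4, the ligase that seals the coding joint, fell by 2.99 on the log2 scale. Xrcc6, the Ku70 subunit, fell by 2.29, while Xrcc5, the Ku80 subunit, was the 1 that rose, by 1.12, and did not with the total over all genes made equal. Xrcc5 was named after its values were seen. Dntt, which adds untemplated bases, stood at 23.6 FPKM in WT iNKT, against 448 and 414 FPKM in WT DP, but missed the threshold (limma adjusted p = 0.0566).

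Genes of the DP program fell. Of 20 DP stage genes 16 fell, with a median of -3.20, and 18 fell under quantile normalization. Arpp21 stood at 25.4 FPKM in WT iNKT, against 530 and 677 FPKM in WT DP. Themis, which sets signalling thresholds during selection, stood at 33.1 FPKM in WT iNKT, against 456 and 536 FPKM in WT DP. Ptcra, the pre-T cell receptor α chain, stood at 1.3 FPKM in WT iNKT, against 10.8 and 10.7 FPKM in WT DP. Cd1d1, the molecule that presents lipid to iNKT cells, stood at 7.52 FPKM in WT iNKT, against 35 and 35.9 FPKM in WT DP.

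The coreceptors were less settled. Cd8b1 stood at 28.3 FPKM in WT iNKT, against 590 and 530 FPKM in WT DP, and passed (-4.26 ± 1.13, limma adjusted p = 0.029), but not with a pseudocount of 0.1 or without either WT DP library. Cd8a, at 22.7 FPKM in WT iNKT, against 455 and 454 FPKM in WT DP, missed it (limma adjusted p = 0.0586). Cd4, at 55.0 FPKM in WT iNKT, against 326 and 335 FPKM in WT DP, missed it too (limma adjusted p = 0.0731). The spread of Cd8a and Cd8b1 was wide in L-DKO iNKT, where Cd8a stood at 47.5 and 2.13 FPKM.

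For 8 DP genes, chosen after their values were seen, WT iNKT cells held a small share of the mean WT DP level: 4.18% for Rag1, 3.47% for Rag2, 5.05% for Cd8b1, 4.98% for Cd8a, 4.22% for Arpp21, 4.93% for Endou, 5.47% for Dntt and 7.77% for Aqp11, a water channel. In WT γδ cells the same genes held 6.82% to 34.2%. Other DP genes were less reduced in WT iNKT, so the 8 do not stand for the DP program. Over the 20 DP stage genes the log2 fold changes ran from -4.50 to 0.38, and that of Cd1d1 was -2.10. Whether DP cells in the sort gave these values was not tested.

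**Figure D1:**
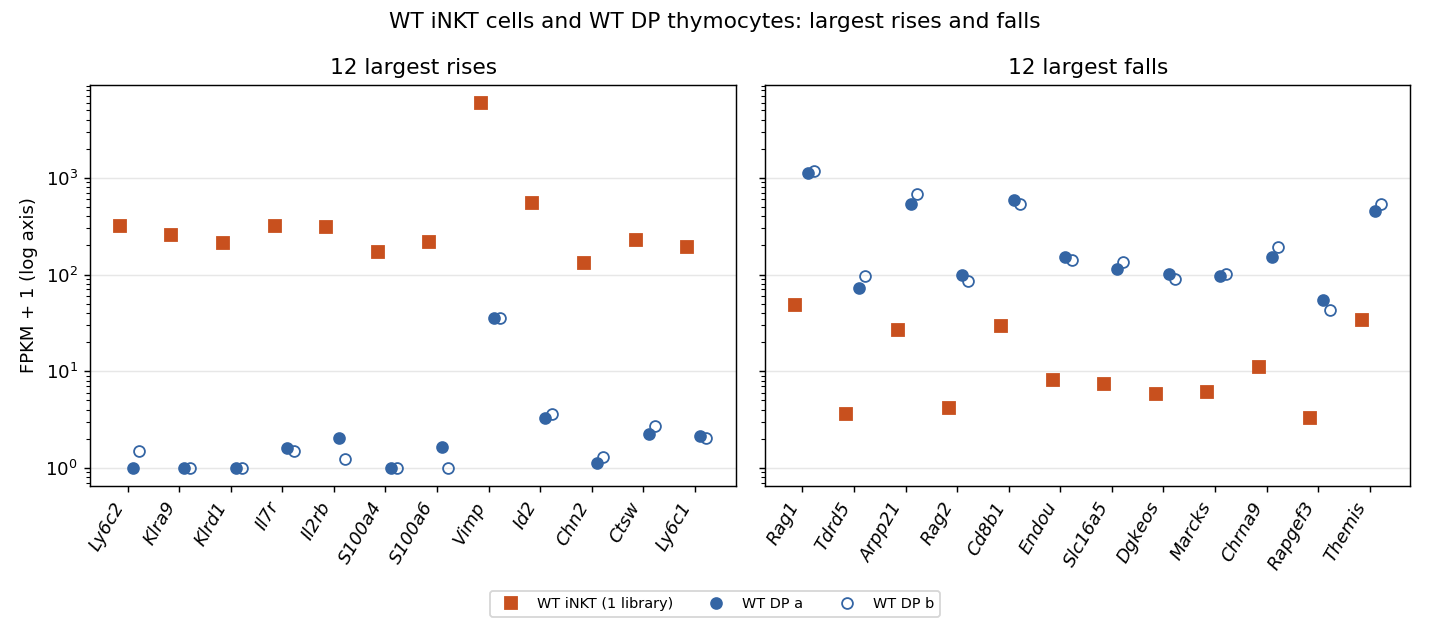
FPKM + 1 on a log axis of the 12 genes with the largest rises (left panel) and the 12 with the largest falls (right panel). Squares are the WT iNKT library and circles the 2 WT DP libraries. The choice of genes required WT iNKT to lie outside the WT DP values. Id2 stands at 553 FPKM against 2.25 and 2.64, and Rag1 at 47.8 FPKM against 1114 and 1177.

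In the plot of the 24 genes with the largest changes, rises were larger than falls on this scale. Beside Id2 the rises held Il7r, Il2rb, S100a4, S100a6, Chn2, Ctsw and the Ly6c and Klr genes described next. They also held Vimp, which codes for the selenoprotein VIMP and stood at 5915 FPKM in WT iNKT, against 34.9 and 34.2 FPKM in WT DP (limma adjusted p = 0.0101), but ranged between libraries of 1 group elsewhere (533 and 2428 FPKM in L-DKO iNKT). Beside Rag1 the falls held Tdrd5, Slc16a5, Marcks, Chrna9, Rapgef3, Dgkeos and Endou.

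Factors of the iNKT lineage changed both ways. Zbtb16 (chr9:48651797-48836225), the PLZF factor that sets the innate program, stood at 88.7 FPKM in WT iNKT, against 0.0684 and 0.0382 FPKM in WT DP (6.41 ± 0.45, limma adjusted p = 0.000204). It was at 53.4 and 68.6 FPKM in L-DKO iNKT, 1.12 and 0.851 in L-DKO DP, 171 and 135 in Id3KO γδ and 24 and 9.69 in WT γδ. Of 23 such factors, 8 rose and 4 fell, with a median of 0.89, against 6 and 7 with the total over all genes made equal.

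Runx3, a factor of CD8 and innate lineages, stood at 71.4 FPKM in WT iNKT, against 2.84 and 4.22 FPKM in WT DP. Klf2, which drives thymic exit genes, stood at 55.6 FPKM in WT iNKT, against 1.87 and 1.01 FPKM in WT DP. Zbtb7b (ThPOK) stood at 38.3 FPKM in WT iNKT, against 2.01 and 1.01 FPKM in WT DP, and lost its call without WT DP b (limma adjusted p = 0.07, against 0.018). Egr3, an early response factor, stood at 18.1 FPKM in WT iNKT, against 0.899 and 1.78 FPKM in WT DP. Myb, needed for the long life of DP cells, fell to 25.8 FPKM in WT iNKT, against 271 and 293 FPKM in WT DP (-3.40 ± 0.23, limma adjusted p = 0.000197).

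Of 7 HMG-box factors 3 fell and 1 rose. Tcf7, which codes for TCF-1, stood at 168 FPKM in WT iNKT, against 955 and 888 FPKM in WT DP (-2.44 ± 0.19, limma adjusted p = 0.000299). Sox4 stood at 4.05 FPKM in WT iNKT, against 58.0 and 53.7 FPKM in WT DP. Lef1 fell by 0.75 on the log2 scale (limma adjusted p = 0.0285) but lost its call in 6 of 22 alternatives, among them without either WT DP library. The 1 that rose, Sox13, at 6.05 FPKM in WT iNKT, against 0.562 and 0.0614 FPKM in WT DP, lost its call under 13 of 22 alternatives. Some of these alternatives repeat the same fit.

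NK cell genes in the table rose. All 8 NK receptor and adaptor genes measured rose, and 7 did under quantile normalization and with either total made equal, while 16 others of the list are not listed in the table. Of the 8 measured, 3 were at 0 in WT DP a, 5 in WT DP b and 0 in WT iNKT. Members at 0 in both WT DP libraries are in the table through other groups, so the count was in part set beforehand. Klrd1, the CD94 receptor chain, stood at 213 FPKM in WT iNKT and was listed at 0 in both WT DP libraries (limma adjusted p = 0.000645), so no fold is given. Klra9, a Ly49 receptor, stood at 257 FPKM in WT iNKT and was also listed at 0 in both WT DP libraries. Klra9 and Klra1, at 62.8 FPKM in WT iNKT, belong to a family of near copies whose reads can be shared. Slamf7 stood at 43.6 FPKM in WT iNKT, against 0.32 and 0 FPKM in WT DP.

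The adaptors Fcer1g and Tyrobp, which relay signals from such receptors, rose too. Fcer1g stood at 43.9 FPKM in WT iNKT, against 1.5 and 0.424 FPKM in WT DP. Tyrobp stood at 33.1 FPKM in WT iNKT, against 1.65 and 0 FPKM in WT DP, and lost its call with only these libraries fitted. Myeloid and dendritic markers moved with them. Of 10 on the list 7 are in the table, 5 of them rose and their sum was 145 FPKM in WT iNKT, against 34.8 and 34.1 FPKM in WT DP and 247 and 281 FPKM in WT γδ. Cd74 was at 49.5 FPKM in WT iNKT, against 2.58 and 2.27 FPKM in WT DP, and Itgam at 1.28, against 1.46 and 2.29. Whether myeloid cells gave part of the adaptor values was not tested.

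Type 1 effector genes rose in 8 of the 9 measured, with a median of 4.14, and 13 others of the list, Ifng among them, are not listed in the table. In each WT DP library 2 of the 9 were at 0, against 0 in WT iNKT, so this count carries the same limit as the NK count. Cxcr6, a chemokine receptor of type 1 cells, stood at 199 FPKM in WT iNKT, against 4.32 and 4.44 FPKM in WT DP (5.22 ± 0.39, limma adjusted p = 0.000274). Ly6c2 stood at 315 FPKM in WT iNKT, against 0 and 0.479 FPKM in WT DP, and its near copy Ly6c1 at 191 FPKM in WT iNKT, against 1.15 and 1.02. S100a6 stood at 213 FPKM in WT iNKT, against 0.635 and 0 FPKM in WT DP. S100a4, at 170 FPKM in WT iNKT, was listed at 0 in both WT DP libraries. Cd160 stood at 34.4 FPKM in WT iNKT, against 0.986 and 1.02 FPKM in WT DP.

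Type 2 genes rose in 5 of 7 and fell in 1, with 3 rises when either total was made equal. Icos, a costimulatory receptor, stood at 220 FPKM in WT iNKT, against 5.10 and 5.95 FPKM in WT DP. Il4ra, the IL-4 receptor, was the 1 that fell, to 10.2 FPKM in WT iNKT, against 32.2 and 33.7 FPKM in WT DP. Type 17 genes gave 2 rises, Ahr and Tmem176a, and 1 fall of 7, and only 2 falls with the total over all genes made equal.

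Receptors for IL-7 and IL-15 rose far above other cytokine receptors. Il7r (chr15:9506159-9529941), the IL-7 receptor α chain, stood at 319 FPKM in WT iNKT, against 0.624 and 0.506 FPKM in WT DP (7.68 ± 0.34, limma adjusted p = 7.29e-05). Il2rb, the β chain that binds IL-2 and IL-15, stood at 312 FPKM in WT iNKT, against 1.03 and 0.226 FPKM in WT DP (7.63 ± 0.63, limma adjusted p = 0.000373). Of 20 cytokine receptor genes 8 rose and 3 fell, against 6 and 7 with the total over all genes made equal. Il6st, the shared gp130 chain, fell to 7.72 FPKM in WT iNKT, against 51.3 and 51.2 FPKM in WT DP.

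Of 15 JAK, STAT and SOCS genes 5 rose and 2 fell, against 2 and 4 with the total over all genes made equal. Jak3, the kinase of the γ chain receptors, stood at 46.0 FPKM in WT iNKT, against 5.71 and 4.75 FPKM in WT DP. Stat5a and Stat5b, which act below the IL-7 receptor, were the 2 that fell, by 1.16 and 1.49 on the log2 scale. Their near-identical stretches can share reads.

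Homing and adhesion genes rose in 14 of 21 and fell in 2, against 7 and 4 with the total over all genes made equal. Cd44, an adhesion receptor of activated cells, stood at 99.3 FPKM in WT iNKT, against 2.43 and 1.55 FPKM in WT DP. Itgb7, an integrin of gut homing, stood at 96.7 FPKM in WT iNKT, against 4.28 and 3.73 FPKM in WT DP. S1pr1, the receptor for egress into blood, stood at 15.5 FPKM in WT iNKT, against 0.135 and 0.235 FPKM in WT DP. Rgs2 stood at 102 FPKM in WT iNKT, against 12.7 and 14.4 FPKM in WT DP.

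T cell receptor signalling genes moved both ways, 12 of 31 up and 5 down, with a median of 0.42. Pdcd1, the PD-1 inhibitory receptor, stood at 33.4 FPKM in WT iNKT, against 1.01 and 0.938 FPKM in WT DP. The inhibitory phosphatase genes Ubash3b and Ptpn6 rose by 3.66 and 2.28 on the log2 scale. Rasgrp1, which couples the receptor to Ras, fell by 1.71. With the total over all genes made equal the list counted 3 higher and 9 lower.

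Among SLAM receptors, whose contacts between DP cells help select iNKT cells, 3 of 8 rose and 3 fell, the list holding Cd1d1 as well, against 3 and 5 with the total over all genes made equal. Ly9 stood at 70.2 FPKM in WT iNKT, against 16 and 12.7 FPKM in WT DP. Slamf1 fell to 4.31 FPKM in WT iNKT, against 30.4 and 36.8 FPKM in WT DP.

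Survival genes of the BCL2 family gave 4 rises and 2 falls of 14, and 3 rises and 5 falls with the total over all genes made equal. Bcl2 rose to 46.5 FPKM in WT iNKT, against 7.90 and 6.98 FPKM in WT DP (2.50 ± 0.44, limma adjusted p = 0.0053). Bcl2l1, which codes for Bcl-xL, the survival protein of DP cells, fell to 17.3 FPKM in WT iNKT, against 112 and 110 FPKM in WT DP (-2.61 ± 0.33, limma adjusted p = 0.00136). Bmf, a death-promoting member, fell to 3.42 FPKM in WT iNKT, against 31.0 and 26.7 FPKM in WT DP. Bcl2a1a and Bcl2a1b, near copies, rose to 48.1 and 118 FPKM in WT iNKT, and Bcl2a1a was listed at 0 in both WT DP libraries.

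**Figure D2:**
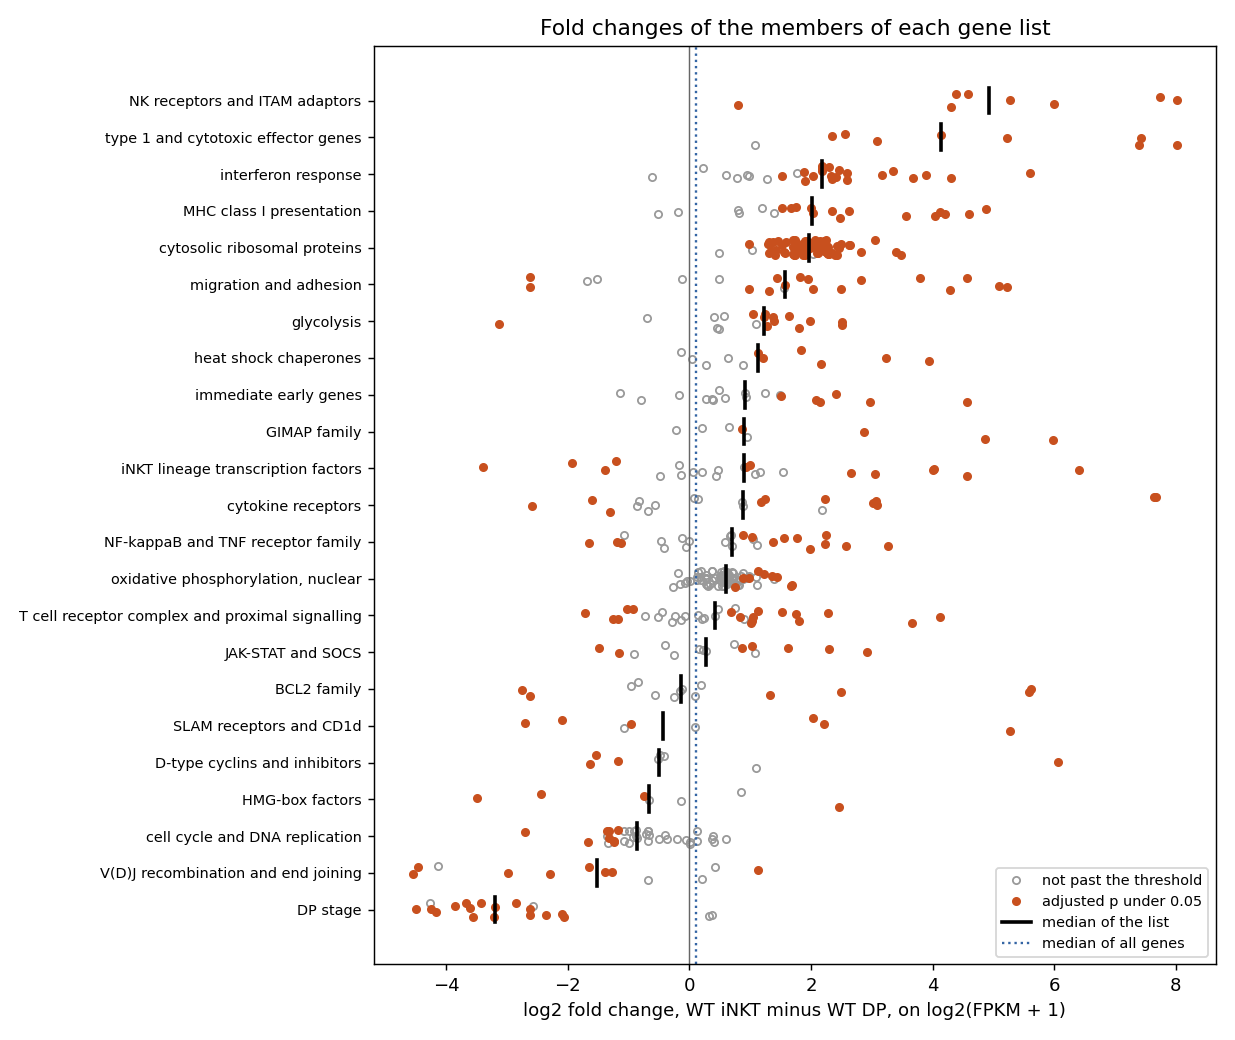
Log2 fold change of WT iNKT over WT DP for every measured member of the lists drawn, which leave out receptor segments, Y-linked genes, cell markers, E and Id proteins, type 2, type 17 and mitochondrial genes, with 1 point a gene, filled where the limma adjusted p was under 0.05. Bars are the medians of these lists, running from 4.93 for NK receptors at the top to -3.20 for DP stage genes at the bottom, and the dotted line is the median of all genes at 0.11.

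Of 8 D-type cyclin and inhibitor genes 1 rose and 3 fell. Ccnd2 rose to 160 FPKM in WT iNKT, against 1.78 and 1.10 FPKM in WT DP (6.05 ± 0.57, limma adjusted p = 0.000551). Ccnd3 fell to 211 FPKM in WT iNKT, against 579 and 653 FPKM in WT DP (-1.54 ± 0.21, limma adjusted p = 0.00181). The inhibitors Cdkn2d and Cdkn1b fell by 1.64 and 1.18 on the log2 scale. Of 37 cell cycle and replication genes 8 fell, with a median of -0.87, and 29 fell with the total over all genes made equal. E2f2 stood at 8.98 FPKM in WT iNKT, against 67.9 and 60.1 FPKM in WT DP.

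Of 25 NF-κB and TNF receptor family genes 10 rose and 3 fell, against 5 and 7 with the total over all genes made equal. Of 18 immediate early genes 6 rose, against 4 rises and 3 falls with that scaling. Tnfrsf1b stood at 45.7 FPKM in WT iNKT, against 3.72 and 4.05 FPKM in WT DP. Ltb, a lymphotoxin subunit, stood at 150 FPKM in WT iNKT, against 38.9 and 35.8 FPKM in WT DP. Dusp1, a MAP kinase phosphatase, stood at 87.6 FPKM in WT iNKT, against 13.4 and 7.88 FPKM in WT DP. Heat shock genes, which like the early genes respond to handling, rose in 6 of 11, or in 3 with that scaling, led by the near copies Hspa1b and Hspa1a at 23.1 and 12.7 FPKM in WT iNKT. The part of handling in either list was not tested.

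Antigen presentation and interferon response genes rose together. Of 20 MHC class I presentation genes 14 rose, with a median of 2.01, and 10 rose with the total over all genes made equal. B2m, the shared light chain, stood at 1717 FPKM in WT iNKT, against 120 and 90.1 FPKM in WT DP (4.03 ± 0.46, limma adjusted p = 0.000978). H2-K1, a classical heavy chain with many near copies, stood at 686 FPKM in WT iNKT, against 39.8 and 32.9 FPKM in WT DP. Nlrc5, the activator of these genes, stood at 61.8 FPKM in WT iNKT, against 3.37 and 2.00 FPKM in WT DP.

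Of 29 interferon response genes 21 rose, with a median of 2.18, and 13 rose with the total over all genes made equal. Ly6a (Sca-1) stood at 152 FPKM in WT iNKT, against 6.34 and 0.360 FPKM in WT DP, and Isg15, a ubiquitin-like effector, at 18.9 FPKM in WT iNKT, against 0.540 and 1.48. Ly6a lost its call without WT DP b and with only the WT iNKT and WT DP libraries fitted. GIMAP GTPases, tied to lymphocyte survival, rose in 4 of 8. Gimap4 led with 271 FPKM in WT iNKT, against 3.65 and 3.02 FPKM in WT DP (5.97 ± 0.23, limma adjusted p = 7.25e-05).

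Most ribosomal protein genes rose, while genes of energy metabolism depended on the scaling. Of 18 glycolysis genes 11 rose and 1 fell, against 3 and 2 with the total over all genes made equal. Aldoa stood at 156 FPKM in WT iNKT, against 28.8 and 24.6 FPKM in WT DP, while Ldhb fell to 11.4 FPKM in WT iNKT, against 107 and 107 FPKM in WT DP. Of 84 cytosolic ribosomal protein genes 80 rose, with a median of 1.96, and 50 rose with the total over all genes made equal. Rpl38 stood at 1000.1 FPKM in WT iNKT, against 155 and 129 FPKM in WT DP. Of 75 nuclear genes of oxidative phosphorylation 9 rose, but 5 fell with the total over all genes made equal. The 13 mitochondrial ones had a median of 0.41.

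Short transcripts moved with this. With genes in 3 classes by transcript length, the median log2 fold change was 0.29 in the short class, up to 2295 bases, and -0.08 in the long class, from 3890 bases. Of the ribosomal protein genes with a known length, 73 of 78 lay in the short class. Without them the median of that class was 0.26. For WT γδ minus WT DP the short and long medians were 0.26 and -0.01. For L-DKO iNKT minus L-DKO DP they were -0.019 and -0.023, while 62 of 84 ribosomal protein genes rose there. The part of transcript length in the ribosomal and metabolic rises was not tested.

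Receptor genes separated the invariant αβ lineage from γδ cells in part only. Trav11 and Trav11d, near copies, stood at 547 and 549 FPKM in WT iNKT. WT γδ held Trav11 at 0.860 and 4.17 FPKM. Trac, the α constant gene, stood at 784 FPKM in WT iNKT, against 317 and 329 FPKM in WT DP (1.28 ± 0.28, limma adjusted p = 0.0143), but lost its call under quantile normalization and without WT DP a. Trbv13-2 and Trbv29, β segments favoured by iNKT cells, were at 520 and 271 FPKM in WT iNKT and missed the threshold.

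The γ genes were high in the 1 WT iNKT library as well. Tcrg-C2 stood at 217 FPKM in WT iNKT, against 1.67 and 0 FPKM in WT DP (7.06 ± 0.75, limma adjusted p = 0.000749), and at 312 and 486 FPKM in WT γδ. Across the 5 γ genes measured, WT iNKT held 36.6% to 55.8% of the WT γδ mean. In L-DKO iNKT the 8 γ and δ segments measured summed to 7.61 and 35.3 FPKM, against 736 FPKM in WT iNKT. Against WT DP, 5 of these 8 segments rose and 3 fell. The δ segment Trdv5 was among the falls, at 0.271 FPKM in WT iNKT, against 7.20 and 13.5 FPKM in WT DP. Its call was lost with a pseudocount of 5 FPKM. WT γδ held Trdv5 at 238 and 341 FPKM. Trdv5 in WT iNKT was thus at 0.0935% of the WT γδ mean, and the γδ factors Sox13 and Etv5 held 2.49% and 2.06% of theirs.

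**Figure D3:**
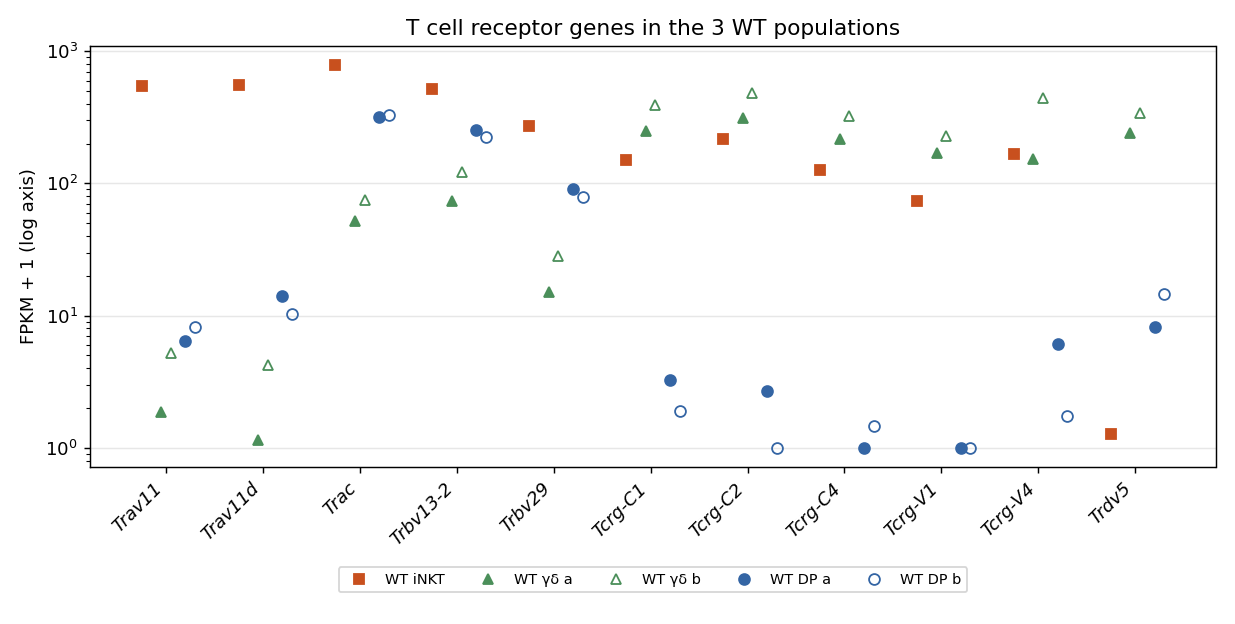
FPKM + 1 on a log axis of α, β, γ and δ receptor genes in WT iNKT (square), WT γδ (triangles) and WT DP (circles). The WT iNKT library holds Trav11 at 547 FPKM and Tcrg-C2 at 217 FPKM, but Trdv5 at 0.271 FPKM.

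The same step was then read in L-DKO cells, which share no library with the WT step. Both steps came from the same fit with the same spread per gene, so their calls are not independent. There 1589 genes rose, 13.4% of all, and 1278 fell, 10.8%, together 24.3%. The 2867 became 1258 without L-DKO DP a and 1289 without L-DKO DP b. Of the genes called in the WT step 1675 were called in the same direction in L-DKO cells, 56.8% of the 2951 in WT and 58.4% of the 2867 in L-DKO. Another 40 were called in opposite directions. Rag1 had a log2 fold change of -4.55 in WT cells and -8.07 in L-DKO cells, and Zbtb16 of 6.41 in WT cells and 4.96 in L-DKO cells. For neither did the difference pass (limma adjusted p = 0.0912 and 0.269).

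A direct test of the difference called 204 genes, 1.73% of all: 146 (1.24%) with a more positive change in WT cells and 58 (0.491%) with a more negative one. The split depends on the scaling: it was 90 more positive and 91 more negative after quantile normalization, 75 and 96 with the total over other genes made equal, and 116 and 3717 with the total over all genes made equal. That count was 18 without L-DKO DP a, 2 without L-DKO DP b, 62 without WT DP a, 88 without WT DP b, 118 without either WT γδ library and 400 without L-DKO iNKT b. Id2, S100a4, Tyrobp, Cd74 and F2r had the largest positive differences among genes that reached 10 FPKM. Id2 is deleted in L-DKO cells, so its L-DKO step was set near 0 beforehand and its difference restates the WT rise. For Id2 it was 7.46 ± 0.67 (limma adjusted p = 0.00834), which became 0.0517 without L-DKO DP b. The other calls were lost in more of the 20 alternatives, in 3 for S100a4, 5 for Tyrobp, 8 for F2r and 9 for Cd74. S100a4 was at 0.364 and 3.16 FPKM in L-DKO iNKT, against 0 and 1.27 FPKM in L-DKO DP. Runx3 was at 1.79 and 0.551 FPKM in L-DKO iNKT, against 1.14 and 0.970 FPKM in L-DKO DP.

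Gene groups in the 2 steps were then set side by side. In type 1 genes 8 of 9 rose in WT cells, 4 rose and 1 fell in L-DKO cells, and the difference passed for 6. These 6 were S100a4, S100a6, Cxcr6, Cd160, Il12rb2 and Stat4. Stat4 missed the threshold in WT cells (limma adjusted p = 0.0903), and its log2 fold change in L-DKO cells was -3.06. Of 29 interferon response genes 21 rose in WT cells and 3 in L-DKO cells, but the difference passed for 2 of them, Bst2 and Gbp3, which were named after their values were seen. Of 8 NK receptor and adaptor genes 8 rose in WT cells and 6 in L-DKO cells, and the difference passed for 2, the adaptors Tyrobp and Fcer1g. Of 20 DP stage genes 16 fell in WT cells and 17 in L-DKO cells. The log2 fold change of Lef1 was -0.75 in WT cells, while it rose to 452 and 489 FPKM in L-DKO iNKT, against 126 and 139 FPKM in L-DKO DP.

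Kcnf1, Il6st, Sema4g, Arhgap20 and Adamtsl2 had the largest negative differences. Their calls were lost in 1 of the 20 alternatives for Kcnf1, 2 for Adamtsl2, 4 for Sema4g, 6 for Il6st and 7 for Arhgap20. Il6st was at 72.3 and 124 FPKM in L-DKO iNKT, against 43.9 and 46.1 FPKM in L-DKO DP, while it fell in WT. Kcnf1, a potassium channel subunit, was at 66.1 and 102 FPKM in L-DKO iNKT, against 3.17 and 2.54 FPKM in L-DKO DP, and at 0.112 FPKM in WT iNKT.

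**Figure D4:**
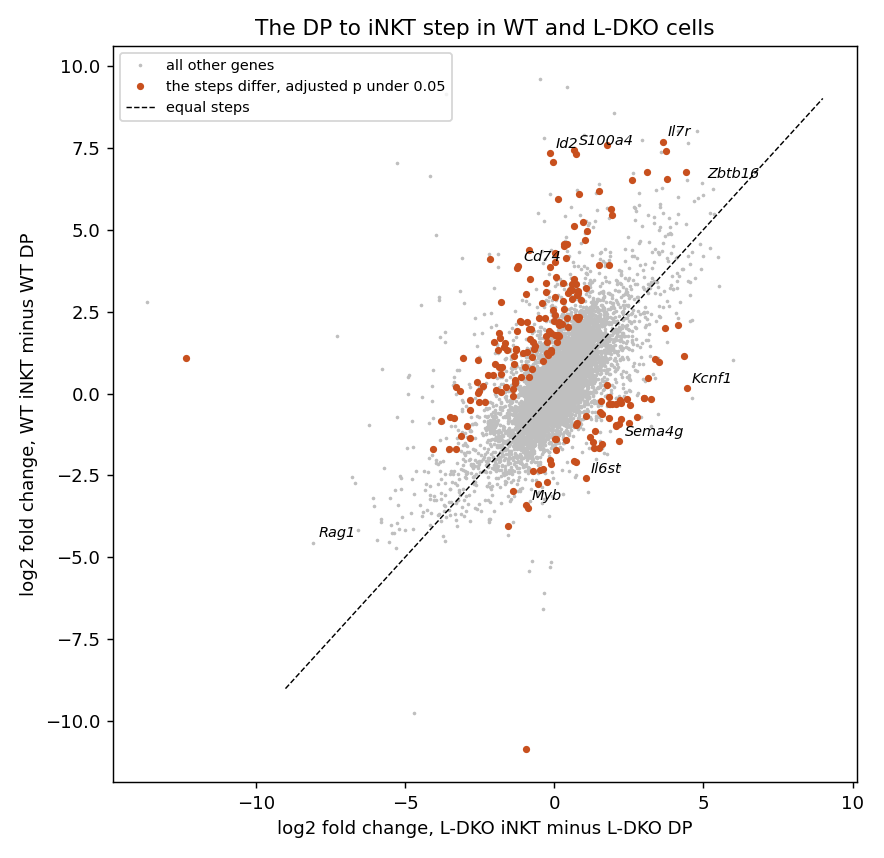
Log2 fold change of the step in WT cells (vertical) against the step in L-DKO cells (horizontal) for all 11815 genes. Coloured points are the 204 genes whose steps differ by limma, and the dashed line marks equal steps. Id2 stands at 7.33 in WT against -0.13 in L-DKO, where it is deleted by design, and Kcnf1 at 0.15 in WT against 4.44 in L-DKO.

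Against WT γδ cells, WT iNKT cells had 144 genes higher (1.22% of all) and 184 lower (1.56%), together 2.78%. Both together were 70 without WT γδ a, 147 without either L-DKO DP library and 187 without either WT DP library. The genes furthest above WT γδ were Klra9, Klrd1, Id2, Bcl2a1b and Ly6c2. Id2 was 4.33 ± 0.52 above WT γδ on the log2 scale (limma adjusted p = 0.00857), and 0.0574 was its adjusted p without WT γδ a. Without that library Klrd1, Klra9, Ly6c2, Etv5 and Sox13 lost their calls too, while Klra9 lost it in 7 and Ly6c2 in 6 of 22 alternatives. Among the genes furthest below it were Etv5, Sox13, Tmem121 and Fam169b. Etv5, an ETS factor, stood at 2.54 FPKM in WT iNKT, against 125 and 123 FPKM in WT γδ and 0.399 and 2.97 FPKM in WT DP.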

How the data were processed

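Thymocytes were sorted from pooled mice, RNA was depleted of ribosomal RNA with RNase H, and stranded paired-end libraries were sequenced on a HiSeq. Per the submitters' notes the authors used Trimmomatic 0.32, TopHat2 2.0.9 and Cufflinks 2.2.0 with mm10 (GRCm38). The authors deposited FPKM of 11815 gene entries as log2 values, read here as log2(FPKM + 1) because entries of 0 occur and none lie below it. The highest FPKM of every gene is at least 1.494. The authors also deposited 5 columns of group means and 3 columns of ratios between groups, which were not used.

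Columns were tied to groups by their headers, and libraries are called a and b in column order. A means model over 6 groups and 11 libraries was fitted with limma 3.58.1 in R 4.3.3 (5 residual and 2.872 prior degrees of freedom) with Benjamini-Hochberg adjustment over all genes and a threshold of 0.05. An exact permutation test of 1 against 2 libraries cannot go below p = 0.333. The fit was run on simulated data that gave WT iNKT the same spread as the other groups, so it could not test that assumption. By the series' design text libraries of a group are separate pools of mice. FPKM carry no read depth.

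The 12 largest called rises and falls were named, if WT iNKT lay outside the WT DP range and the higher of the group means reached 10 FPKM, leaving out predicted genes, small RNA and segments. Named too were Id2, Id3, Zbtb16, Rag1 and the markers, the 5 largest per direction in the other comparisons, and up to 6 members per list with the largest changes. The members and the 38 lists were chosen with earlier results of these data known. Symbols with serial numbers in place of names were not named, and a few genes that the rule picks are not reported here. Alternatives changed the pseudocount, low-value filter, groups fitted, scaling and moderation, or left out a library. For a group outside a comparison, leaving out either of its libraries gave the same result. Tallies over alternatives thus count some fits more than once. Gene entries were matched to RefSeq by symbol: 10377 entries matched, a further 618 matched by an older symbol, and 820 did not match. Lengths, matched by name, were found for 8777 of 9455 genes other than small RNA, segments and predicted genes. Promoters were matched by the symbol as given. Figures were drawn with matplotlib 3.10.9 in Python 3.11.15.

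Among other marker lists, 2 B cell markers summed to 72.5 FPKM in WT iNKT, against 157 and 160 FPKM in WT DP, 2 epithelial markers to 5.29, against 5.73 and 8.18, 5 red blood cell markers to 117, against 22.4 and 45 and 5 γδ markers to 570, against 4.49 and 1.4.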

Additional observations from a re-analysis of the deposited data

Results flagged for a closer look

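A limma test of the difference between the WT step (WT iNKT minus WT DP) and the L-DKO step (L-DKO iNKT minus L-DKO DP) picked out 35 of the genes named. Of the 10 genes named for this difference, 0 kept their call under every alternative. The differences of the other genes were not followed through the alternatives. Values are WT step minus L-DKO step on the log2 scale, so a positive value means a higher value of WT iNKT cells relative to DP cells than in L-DKO. No cause was tested. Where a group was listed at 0, the fitted value depends on the pseudocount and is no bound.

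Among regulators, the differences were 7.46 for Id2, 4.15 for Stat4, 3.99 for Runx3, -2.47 for Myb, -2.57 for Lef1 and -2.62 for Sox4. The value of Id2, a gene deleted in L-DKO cells, restates its rise in WT cells. Stat4 stood at 0.775 and 0.268 FPKM in L-DKO iNKT, against 11 and 12.1 FPKM in L-DKO DP. The recombination ligase Lig4 gave -1.63.

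Effector, receptor and surface genes gave 6.76 for S100a4, 3.66 for S100a6, 4.04 for Il7r, 4.26 for Cxcr6, 3.76 for Cd160, 3.35 for Il12rb2, 2.74 for Ctsw, 2.80 for Ltb, 2.89 for Tmem176a and 2.56 for Tmem176b. The adaptors gave 5.25 for Tyrobp and 4.23 for Fcer1g, and Cd74 of antigen-presenting cells gave 5.09. Receptor γ genes gave 7.09 for Tcrg-C2 and 5.79 for Tcrg-C1.

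Signalling and survival genes gave 5.07 for F2r, 3.71 for Bcl2a1a, 2.52 for Rgs2, 2.34 for Chn2, 1.48 for Ptpn6, -1.78 for Rasgrp1 and -3.64 for Il6st. The ribosomal entry Rps12l2, whose reads can be shared with Rps12, gave 2.81. Negative differences of other genes were -4.28 for Kcnf1, -3.63 for Sema4g, -3.49 for Arhgap20, -3.41 for Adamtsl2 and -2.49 for Slc16a5.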

How the results depend on the processing

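No paired analysis was possible because the columns carry no replicate numbers and WT iNKT has 1 column. No alternative left out that WT iNKT library, on which every WT fold rests. Genes were named mainly for large changes, so the counts of named genes do not stand for all called genes. Of the 182 genes named in the WT comparison 150 passed the threshold, and 104 of these did so under every alternative run, as did 3 of 10 named against WT γδ and 0 of 10 named for the difference of steps. With a pseudocount of 0.1 FPKM the difference of steps called 129 genes and the WT γδ comparison 217. With only the groups compared in the fit, the WT comparison called 1647 (1059 higher, 588 lower) and the WT γδ comparison 976. Equal totals over other genes gave 1755 lower in WT iNKT. Equal totals over all genes gave 4778 (707 higher, 4071 lower), 3833 for the difference of steps and 173 against WT γδ. In the alternatives chosen after seeing the data, leaving out small RNA, segments and predicted genes gave 324 for the difference of steps, and leaving out L-DKO iNKT gave 3058 for the WT comparison and 458 against WT γδ.

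Leaving out 1 library at a time gave 1993 to 3058 genes in the WT comparison (1371 to 1983 higher, 622 to 1109 lower, with 622 without WT DP b and 645 without WT DP a), 1258 to 2950 in the L-DKO step, 2 to 400 in the difference of steps and 70 to 458 against WT γδ. The L-DKO step gave 1258 without L-DKO DP a and 1289 without L-DKO DP b. The difference of steps gave 62 without WT DP a, 88 without WT DP b, 118 without either WT γδ library, 18 without L-DKO DP a, 2 without L-DKO DP b and 400 without L-DKO iNKT b. The WT γδ comparison gave 147 without either L-DKO DP library and 187 without either WT DP library. Signs turned for mt-Co1 (-0.13 after quantile normalization, -0.32 with equal totals over all genes), for Gimap8 (-0.056), Gimap6 (-0.29), mt-Nd1 (-0.15) and mt-Co3 (-0.24) with equal totals over all genes, and for Id3 (0.20 without WT DP a, -0.34 without WT DP b). The cause was not tested. FPKM carry no read depth, so the counting error of low values is unknown.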
